A study of Mus musculus with 4 samples.

Results

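CD8 T cells from clones of moderate size were compared with CD8 T cells whose receptor was seen in a single cell, in the spleens of 2 lymphoma-bearing mice. A barcode entered if the T-cell receptor (TCR) library listed a TRB chain for it and it held at least 1 UMI (unique molecular identifier, a counted RNA molecule) of Cd8a or Cd8b1, 0 UMIs of Cd4 and at most 2 UMIs of Cd79a and Cd79b together. It was then placed by the frequency of its clonotype, the number of cells that the authors' clonotype table gives to the same receptor. Cells of clonotypes with frequency 5 to 49 are called expanded below, and cells of clonotypes with frequency 1 are called singletons. The gate held 8758 of 33120 barcodes, and 5334 of these were members, 3717 expanded cells and 1617 singletons. The pBIC10 mouse gave 1040 expanded cells in 121 clonotypes and 896 singletons, and the pBIC mouse gave 2677 expanded cells in 252 clonotypes and 721 singletons. The cells were thus chosen by their clone frequency and their Cd8, Cd4 and Cd79 counts, and these values are described and not tested.

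Both mice were female and carried a GFP-marked B-cell lymphoma in the spleen; 1 had the genotype pBIC10 and 1 the genotype pBIC. The series asks how interleukin-10 made by the tumour B cells shapes the surroundings of a diffuse large B-cell lymphoma, but the labels do not state the alleles, the treatment or the age of either mouse, nor how pBIC10 bears on Il10. From each spleen a sorted mixture of 20% live GFP+ and 80% live GFP- cells was run on the 10x 5' chemistry for gene expression and for TCR. With 1 mouse per genotype, genotype, mouse and library cannot be told apart, and the expanded and singleton cells of 1 mouse share their suspension and their run.

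A CD8 T cell keeps the receptor that it assembled in the thymus, and so do its descendants, so cells with the same rearranged TRB and TRA chains are read as a clone. The CDR3 is the part of each chain that spans the joined segments and touches the antigen. In chronic infection and in tumours, CD8 cells that keep the transcription factor encoded by Tcf7 are known to renew themselves. Their progeny carry the inhibitory receptor TIM-3, granzymes and inflammatory chemokines. Naive and central memory cells are known for the lymph-node homing gene Ccr7 and for Il7r, the receptor of a survival cytokine.

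The TRB CDR3 of the 3 largest clonotypes of the class in each mouse are shown because their expression is described below as the range within the class; capitals mark the first and the last codon, which bound the CDR3.
pBIC10 clonotype6, frequency 33, TRBV12-2+TRBV13-2 and TRBJ1-2: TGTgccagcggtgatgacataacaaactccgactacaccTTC
pBIC10 clonotype7, frequency 29, TRBV3 and TRBJ2-2: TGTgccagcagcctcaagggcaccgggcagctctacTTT
pBIC10 clonotype8, frequency 28, TRBV5 and TRBJ2-1: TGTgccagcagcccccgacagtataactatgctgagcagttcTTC
pBIC clonotype20, frequency 48, TRBV3 and TRBJ1-3: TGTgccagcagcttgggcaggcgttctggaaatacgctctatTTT
pBIC clonotype21, frequency 46, TRBV17 and TRBJ1-1: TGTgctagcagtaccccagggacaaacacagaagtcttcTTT
pBIC clonotype25, frequency 45, TRBV12-1 and TRBJ1-4: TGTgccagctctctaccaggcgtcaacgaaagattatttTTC

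In pBIC10, 2 pairs of expanded clonotypes reached the same TRB CDR3 protein through different nucleotides, and no such pair was found among the expanded clonotypes of pBIC. They are shown because separate rearrangements that encode a shared TRB CDR3 are separate clones by origin. Capitals mark the bases at which the members of a pair differ.
clonotype7, 29 cells, TRBV3 and TRBJ2-2: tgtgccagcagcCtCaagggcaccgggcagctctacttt
clonotype93, 6 cells, TRBV3 and TRBJ2-2: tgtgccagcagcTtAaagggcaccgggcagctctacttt
clonotype75, 7 cells, TRBV10 and TRBJ2-1: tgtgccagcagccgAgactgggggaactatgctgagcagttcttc
clonotype76, 7 cells, TRBV10 and TRBJ2-1: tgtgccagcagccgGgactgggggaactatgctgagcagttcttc
Clonotypes 7 and 93 also carried the same TRA CDR3 nucleotides, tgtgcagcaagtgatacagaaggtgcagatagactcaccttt, with TRAV14N-3. Clonotypes 75 and 76 differed in their TRA CDR3 nucleotides and in the TRA V segment, with TRAV3-3 in the first and TRAV3N-3 in the second.

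No TRB CDR3 was held by the expanded clonotypes of both mice: taking the TRB chain with the most UMIs in each cell, 0 of 122 distinct nucleotide sequences (120 proteins) of pBIC10 and 0 of 250 (250 proteins) of pBIC were shared. Among singletons 9 TRB CDR3 proteins were shared (1.04% of those of pBIC10 and 1.40% of those of pBIC) and 0 nucleotide sequences. Within a mouse, 6 of the 121 expanded clonotypes of pBIC10 and 22 of the 252 of pBIC shared their TRB CDR3 nucleotides with another expanded clonotype. The counts of clonotypes are thus not counts of distinct TRB chains. The median TRB CDR3 length was 42 bases over expanded clonotypes and 42 bases over singletons in each mouse. TRBV3 served 10.7% of the 121 expanded clonotypes and 7.48% of the 896 singletons of pBIC10 (Clopper-Pearson 95% intervals 5.85 to 17.7% and 5.84 to 9.4%), and TRBV19 served 10.3% of the 252 expanded clonotypes and 8.04% of the 721 singletons of pBIC (6.85 to 14.8% and 6.16 to 10.3%). These were the most used V segments of each expanded class, so they are a description, and no difference in V use was tested.

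The members carried the RNA of T cells. Cd3e, a chain of the TCR complex, had a UMI in 99.4% of expanded cells and 98.7% of singletons of pBIC10, and in 99.7% of expanded cells and 99.3% of singletons of pBIC. The median cell held 11 Cd8a and Cd8b1 UMIs in expanded cells and 11 in singletons of pBIC10, and 10 in expanded cells and 9 in singletons of pBIC. Chains typical of invariant NKT cells were found in 0 expanded clonotypes and 2 singletons, both of pBIC, and chains typical of MAIT cells in 0.

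Depth differed between the classes. The median cell held 7306.5 UMIs in expanded cells and 8921.5 in singletons of pBIC10, and 6254 in expanded cells and 6735 in singletons of pBIC. The class sums were 11144603 UMIs for expanded cells and 11054733 for singletons of pBIC10, and 22328444 for expanded cells and 6021355 for singletons of pBIC. The gate passed 81.7% of TRB barcodes from expanded clonotypes and 72.1% of singleton ones in pBIC10, and 68.9% of expanded and 62.0% of singleton ones in pBIC. Scrublet marked 34 expanded cells and 37 singletons of pBIC10 as doublets and 0 members of pBIC, where it gives no check of doublets. The 2 gene expression libraries shared 712 barcodes, and 157 members carried one of them, 6 barcodes being members in both libraries with no TRB chain in common; without the 157 edgeR called 189 genes higher and 192 lower, against 79 and 98 with them.

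Part of the singletons carried the TRB chain of another cell. A TRB CDR3 found in another cell of the same mouse was carried by 78 of 896 singletons of pBIC10 (8.71%, 33 without a TRA chain) and by 162 of 721 singletons of pBIC (22.5%, 101 without a TRA chain). In 23 and 83 of these, the other cells formed an expanded clonotype. No TRA chain was found in 7.50% of expanded cells and 10.9% of singletons of pBIC10, and in 9.94% of expanded cells and 22.9% of singletons of pBIC. The singletons that shared a TRB CDR3 with an expanded clonotype held 0 UMIs of Tcf7 in 23 cells of pBIC10, where singletons with a TRB CDR3 of their own held 58.6 CPM, and 58.3 CPM in pBIC, where those with their own held 89.0. Maf stood at 74.5 CPM in the sharing and 23.5 CPM in the other singletons of pBIC10, and 217 CPM in the sharing and 113 CPM in the other singletons of pBIC. In pBIC the Tcf7 level of the sharing singletons lay between those of expanded cells and of the other singletons. Ly6c2 and Il10 of the sharing singletons did not lie near the level of expanded cells in either mouse. Ly6c2 stood at 239 CPM in the sharing and 262 CPM in the other singletons of pBIC10 and 275 CPM in the sharing and 444 CPM in the other singletons of pBIC, and Il10 at 16.0 CPM in the sharing and 19 CPM in the other singletons of pBIC10 and 20.0 CPM in the sharing and 21.6 CPM in the other singletons of pBIC. The sharing cells were few, 23 and 83, and held 3 and 11 UMIs of Il10. With all such singletons left out, a setting added after the data had been seen, edgeR called 53 genes higher and 59 lower, 109 of them among the 177 of the full comparison.

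Levels are UMIs of a gene per 1000000 UMIs of its class in a library (CPM), with exact Poisson 95% intervals that cover counting error only. Over both mice, edgeR compared the 4 class sums with the mouse as a block, which leaves 1 residual degree of freedom, and a gene passed at a Benjamini-Hochberg adjusted p under 0.05. An adjusted p below is that of edgeR unless DESeq2, the second tool, is named, and the p-values measure only the spread between these sums from 2 mice. The standard error (SE) beside a log2 fold change was derived from the F statistic of the edgeR test. It is no separate measure of the spread between the mice. Of 11932 genes tested, 79 (0.662%) rose in expanded cells and 98 (0.821%) fell. Of the 79, 77 had a ratio above 1 in both libraries, and of the 98, 96 had a ratio below 1 in both. The ratios come from the same sums that edgeR tested, so they are no separate check of its calls. Within a library there is no test, and a gene was counted as higher or lower at a ratio of at least 1.5 with at least 50 UMIs and a counting interval that does not include 1. In pBIC10, 240 of 10467 genes (2.29%) were higher and 302 (2.89%) lower, and in pBIC 341 of 10575 genes (3.22%) were higher and 215 (2.03%) lower. Both libraries had 52 genes higher and 57 lower in common, and 11 genes went opposite ways.

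**Figure D1:**
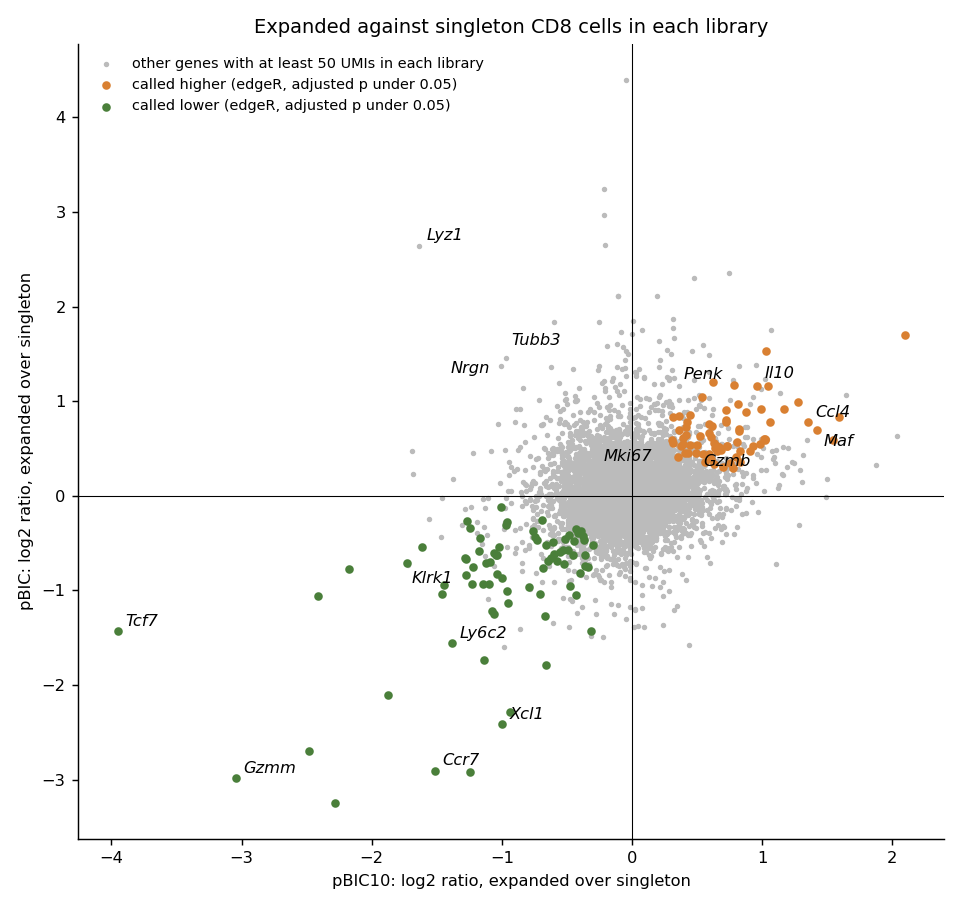
Each point is a gene with at least 50 UMIs in each library, placed by its log2 ratio of expanded over singleton cells in pBIC10 (x axis) and in pBIC (y axis); orange and green points passed the edgeR test over both mice as higher and lower. Tcf7 lies furthest left at -3.95 in pBIC10 and -1.43 in pBIC, Gzmm is low in both, and Lyz1, Nrgn and Tubb3 lie in the upper left, lower in pBIC10 and higher in pBIC.

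Chemokine and cytokine genes were among those that rose in expanded cells. Of 11 listed genes tested, 4 rose (Ccl3, Ccl4, Ifng and Il10) and 0 fell, and the median log2 fold change of the list was 0.71, beside -0.00 over all 11932 genes. Ccl3 and Ccl4 encode inflammatory chemokines. Ccl3 stood at 795 CPM in expanded and 329 CPM in singleton cells of pBIC10, and 699.7 CPM in expanded and 351 CPM in singleton cells of pBIC. Ccl4 stood at 2075 CPM in expanded and 811 CPM in singleton cells of pBIC10, and 2316 CPM in expanded and 1350.0 CPM in singleton cells of pBIC. Both expanded sums lay above both singleton sums. The log2 fold change was 1.12 (SE 0.11, adjusted p 0.000149) for Ccl3 and 1.05 (SE 0.15, adjusted p 0.00262) for Ccl4.

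Il10, the gene of the cytokine that the series is about, was present at a low level. It stood at 37.7 CPM in expanded and 19.4 CPM in singleton cells of pBIC10, and 45.1 CPM in expanded and 20.1 CPM in singleton cells of pBIC, or 1.95 and 2.24 times the singleton level in pBIC10 and in pBIC. The expanded sums of the 2 mice lay close together, as did the singleton sums, and the log2 fold change was 1.05 (SE 0.11, adjusted p 0.000298). A UMI of Il10 was seen in 16.6% of expanded cells and 10.3% of singletons of pBIC10, and 13.3% of expanded cells and 7.35% of singletons of pBIC. B-lineage barcodes without a TCR, which can transcribe Il10 themselves, had one in 0.962% of 936 cells of pBIC10 (median 16237 UMIs) and 25.4% of 1634 cells of pBIC (median 13074.5 UMIs). With each cell thinned to 2000 UMIs, which left out 11 expanded cells and 17 singletons of pBIC10 and 36 expanded cells and 16 singletons of pBIC, the shares were 6.80% of expanded cells and 2.62% of singletons of pBIC10, and 5.57% of expanded cells and 3.26% of singletons of pBIC, beside 0.219% and 4.57% of B-lineage barcodes. In pBIC10 both CD8 classes lay above the B-lineage barcodes. In pBIC expanded cells lay above and singletons below them. Since B-lineage barcodes can transcribe Il10, their share is not a floor of free RNA. It cannot tell whether either CD8 class of pBIC expressed Il10, so neither share there is read as expression from it. The part of free RNA was not tested.

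Ifng, which encodes interferon gamma, stood at 167 CPM in expanded and 94.3 CPM in singleton cells of pBIC10, and 427 CPM in expanded and 265 CPM in singleton cells of pBIC, with a log2 fold change of 0.74 (SE 0.09, adjusted p 0.000793). Its level was higher in both classes of pBIC than in either class of pBIC10, and in each library expanded cells were higher. Ccl5 stood at 13605 CPM in expanded and 6335 CPM in singleton cells of pBIC10, and 35324 CPM in expanded and 27869 CPM in singleton cells of pBIC, but its log2 fold change of 0.71 (SE 0.28) had an adjusted p of 0.369. Lta and Ccl1 were the listed genes with the lowest fold changes, -1.20 and -0.80, and neither passed (adjusted p 0.114 and 0.340). Csf1, the growth factor of macrophages, is in none of the lists and stood at 55.1 CPM in expanded and 27.1 CPM in singleton cells of pBIC10, and 127 CPM in expanded and 83.7 CPM in singleton cells of pBIC, with a log2 fold change of 0.78 (SE 0.11, adjusted p 0.00219).

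**Figure D2:**
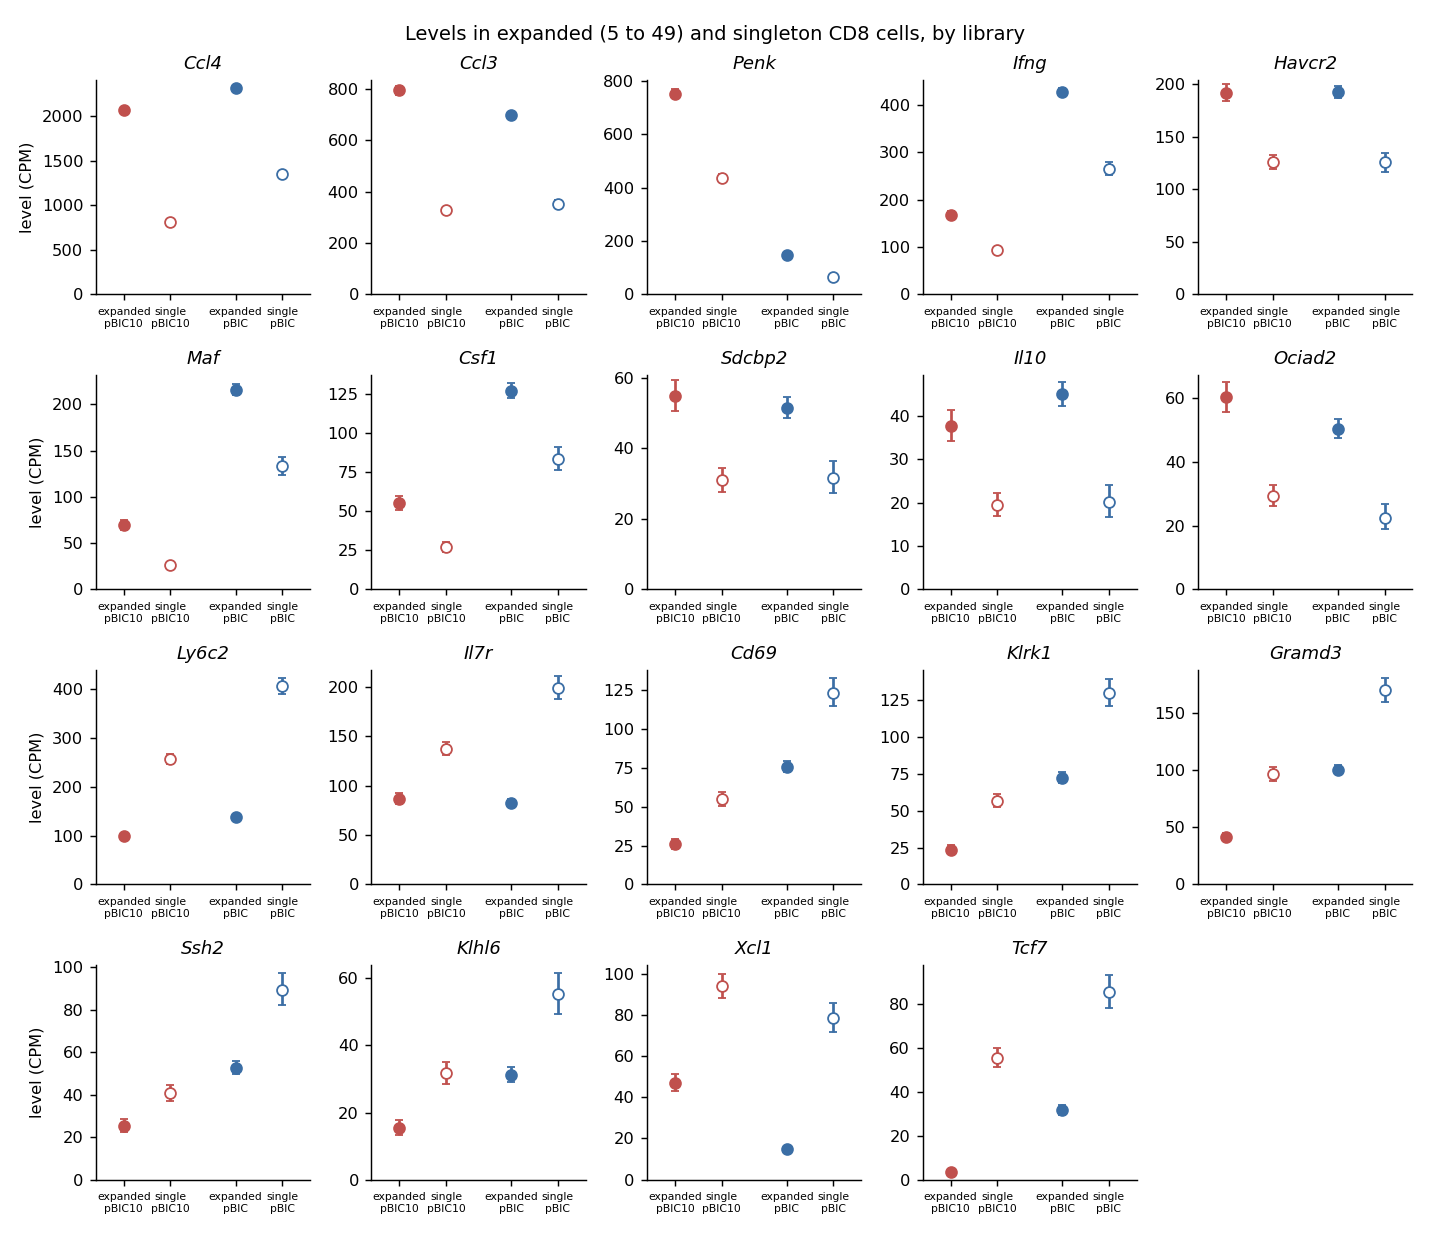
Points are levels in CPM (y axis, each from 0) of 10 genes that rose and 9 that fell by the rule for named genes, in expanded (filled) and singleton (open) cells of pBIC10 (red) and pBIC (blue); bars are exact Poisson 95% intervals, counting error only. In each panel both libraries differ in the same direction, which the rule that named the genes requires. Il10, for example, lies at 37.7 and 19.4 CPM in expanded and singleton cells of pBIC10 and 45.1 and 20.1 CPM in those of pBIC.

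Several inhibitory receptors and transcription factors tied to T-cell exhaustion rose in expanded cells. Of 13 receptors tested 5 rose (Entpd1, Havcr2, Lag3, Pdcd1 and Tigit) and 0 fell, with a list median of 0.28 on the log2 scale. Havcr2, which encodes TIM-3, stood at 192 CPM in expanded and 126 CPM in singleton cells of pBIC10, and 192 CPM in expanded and 125 CPM in singleton cells of pBIC. Its expanded levels were nearly the same in both mice and its log2 fold change was 0.60 (SE 0.08, adjusted p 0.00197). Pdcd1, which encodes PD-1, stood at 162 CPM in expanded and 105 CPM in singleton cells of pBIC10, and 236 CPM in expanded and 160.3 CPM in singleton cells of pBIC, with a log2 fold change of 0.58 (SE 0.08, adjusted p 0.00268). Expanded cells of pBIC10 and singletons of pBIC had like levels of Pdcd1, so the class difference shows within each mouse and not across them.

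Lag3 stood at 135 CPM in expanded and 71.6 CPM in singleton cells of pBIC10, and 158 CPM in expanded and 114 CPM in singleton cells of pBIC, and its log2 fold change was 0.68 (SE 0.11, adjusted p 0.00565). Tigit stood at 497 CPM in expanded and 319 CPM in singleton cells of pBIC10, and 562 CPM in expanded and 396 CPM in singleton cells of pBIC, with a log2 fold change of 0.56 (SE 0.10, adjusted p 0.00918). Entpd1, which encodes the ectoenzyme CD39, stood at 73.1 CPM in expanded and 35.9 CPM in singleton cells of pBIC10, and 105 CPM in expanded and 69.6 CPM in singleton cells of pBIC, with a log2 fold change of 0.79 (SE 0.11, adjusted p 0.00212); after thinning each cell to 2000 UMIs its adjusted p was 0.0929. Ctla4 at 0.28, Cd38 at 0.40, Cd160 at -0.37 and Btla at -0.72 did not pass (adjusted p 0.173, 0.0913, 0.0543 and 0.0895), and the signs of Cd160 and Btla were negative in both libraries.

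Of 10 exhaustion-related transcription factors 3 rose (Maf, Tox and Tox2) and 1 fell (Ikzf2), with a list median of 0.35. Maf stood at 69.5 CPM in expanded and 26 CPM in singleton cells of pBIC10, and 216 CPM in expanded and 133 CPM in singleton cells of pBIC, with a log2 fold change of 0.99 (SE 0.14, adjusted p 0.00212). Tox stood at 149 CPM in expanded and 73.5 CPM in singleton cells of pBIC10, and 186 CPM in expanded and 123 CPM in singleton cells of pBIC, with a log2 fold change of 0.79 (SE 0.11, adjusted p 0.00187). Both were higher in expanded cells of each library, and pBIC was above pBIC10 in each class. Tox2 stood at 27.2 CPM in expanded and 9.32 CPM in singleton cells of pBIC10, and 35.0 CPM in expanded and 23.3 CPM in singleton cells of pBIC, and passed edgeR (log2 fold change 1.01, SE 0.19, adjusted p 0.0148) but not DESeq2 (adjusted p 0.0991). Ikzf2, which encodes Helios, stood at 23.1 CPM in expanded and 33.0 CPM in singleton cells of pBIC10, and 37.5 CPM in expanded and 51.5 CPM in singleton cells of pBIC, with a log2 fold change of -0.50 (SE 0.10, adjusted p 0.0224), and did not pass DESeq2 either (adjusted p 1.0). Batf and Irf4, which act early after TCR signals, had 0.33 and 0.48 with adjusted p of 0.0945 and 0.0819.

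Cytotoxic genes split. Of 14 tested, Prf1 and Gzmf rose, Gzmm fell, and the list median was 0.27. Prf1, the gene of the pore-forming perforin, stood at 404 CPM in expanded and 244 CPM in singleton cells of pBIC10, and 319.7 CPM in expanded and 222 CPM in singleton cells of pBIC, with a log2 fold change of 0.62 (SE 0.09, adjusted p 0.00393). Gzmb stood at 1379 CPM in expanded and 978 CPM in singleton cells of pBIC10, and 3319 CPM in expanded and 2363 CPM in singleton cells of pBIC, or 1.41 and 1.40 times the singleton level, and Gzmk at 927 CPM in expanded and 603 CPM in singleton cells of pBIC10, and 1454 CPM in expanded and 1093 CPM in singleton cells of pBIC. The ratio of the Gzmb sums was alike in the 2 libraries, but its spread over clonotypes was not. Among expanded clonotypes with at least 5 gated cells, Gzmb lay above the singleton level in 41 of 110 in pBIC10 and 119 of 201 in pBIC. The median clonotype held 809 CPM in pBIC10, below its singletons, and 2955 CPM in pBIC, above its singletons. The adjusted p of edgeR was 0.108 for Gzmb and 0.0507 for Gzmk, and DESeq2 gave 0.0101 and 0.0177. Over the 13 alternatives that kept the mouse block, Gzmb passed in 6 (adjusted p from 3.06e-05 to 0.170) and Gzmk in 10 (adjusted p from 0.000548 to 0.153).

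Gzmm had the lowest log2 fold change of the cytotoxic list, -3.03 (SE 0.20, adjusted p 8.24e-06). It stood at 1.08 CPM in expanded and 8.86 CPM in singleton cells of pBIC10, and 4.61 CPM in expanded and 36.5 CPM in singleton cells of pBIC, so its level in expanded cells was 8.23-fold lower in pBIC10 and 7.92-fold lower in pBIC. Gzmf, a granzyme of a small cluster of related genes, stood at 31 CPM in expanded and 7.51 CPM in singleton cells of pBIC10, and in pBIC it had 15 UMIs in expanded cells and 0 in singletons; it passed edgeR (adjusted p 0.000621) and not DESeq2 (adjusted p 1.0). In pBIC10 it had 0 UMIs in 72 of the 110 expanded clonotypes with at least 5 gated cells, lay above the singleton level in 26 and reached 813 CPM. Reads of such neighbouring granzyme copies can be split between them. Gzma, at -0.11 (adjusted p 0.812), and Nkg7, at 0.32 (adjusted p 0.512), did not pass. Of 12 genes of effector differentiation 2 rose, Prdm1 (log2 fold change 0.56, SE 0.09, adjusted p 0.00662) and S100a4 (log2 fold change 0.45, SE 0.10, adjusted p 0.0380), and 0 fell; Klrg1, Cx3cr1 and Tbx21 did not pass. Prdm1 stood at 103 CPM in expanded and 65.4 CPM in singleton cells of pBIC10, and 65.9 CPM in expanded and 47.5 CPM in singleton cells of pBIC and S100a4 at 545 CPM in expanded and 416 CPM in singleton cells of pBIC10, and 962 CPM in expanded and 659.7 CPM in singleton cells of pBIC. Prdm1 did not pass DESeq2 (adjusted p 0.282), and S100a4 passed in 9 of the 13 alternatives (adjusted p from 0.00154 to 0.171).

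Genes of naive and central memory cells had the highest share of called members among the 22 lists. Of 14 tested, 11 fell, among them Ccr7, Dapl1, Il7r, Lef1, Ltb and Tcf7, and 0 rose, the list median was -0.85, and the other 3 (Bach2, Foxp1 and Klf2) had negative fold changes of -1.12, -0.31 and -0.37 without passing. Within the libraries 11 of 13 counted members were lower in pBIC10 and 5 of 12 in pBIC. DESeq2 called 4 of the 11, Dapl1, Il7r, Ltb and Tcf7.

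Tcf7, the gene of TCF-1, stood at 3.59 CPM in expanded and 55.5 CPM in singleton cells of pBIC10, and 31.7 CPM in expanded and 85.5 CPM in singleton cells of pBIC. Expanded cells of pBIC10 were the lowest of the 4 sums by far, 15.5-fold below their singletons, and those of pBIC were 2.70-fold below theirs; the difference between the mice was not tested. The log2 fold change was -2.24 (SE 0.31, adjusted p 0.00212). A UMI of Tcf7 was seen in 2.21% of expanded cells and 21.7% of singletons of pBIC10, and 15.4% of expanded cells and 33.3% of singletons of pBIC, beside 1.39% and 12.8% of the B-lineage barcodes of pBIC10 and pBIC, which should lack it. After thinning to 2000 UMIs the shares were 1.17% of expanded cells and 9.78% of singletons of pBIC10, and 7.72% of expanded cells and 14.6% of singletons of pBIC, beside 0.219% and 3.38%. With frequency 10 to 49 as the expanded class, Tcf7 had an adjusted p of 0.0537.

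Il7r stood at 86.5 CPM in expanded and 137 CPM in singleton cells of pBIC10, and 82.5 CPM in expanded and 199 CPM in singleton cells of pBIC, with a log2 fold change of -0.98 (SE 0.12, adjusted p 0.00107). Ccr7 stood at 38.1 CPM in expanded and 109 CPM in singleton cells of pBIC10, and 2.24 CPM in expanded and 16.8 CPM in singleton cells of pBIC, with a log2 fold change of -1.86 (SE 0.21, adjusted p 0.000427), and did not pass DESeq2 (adjusted p 0.172). For both genes expanded cells were lower in each mouse, and Ccr7 was higher in pBIC10 than in pBIC in each class. Dapl1 and Igfbp4 were near absent from expanded cells of pBIC, with 1 UMI each, against 32 and 40 UMIs in its singletons.

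Of 7 genes of stem-like exhausted cells 2 fell, Id3 and Xcl1, and 0 rose, with a list median of -0.23. Within the libraries the median was -0.62 in pBIC10, with 4 of 7 lower, and 0.00 in pBIC, with 2 of 7 lower. Xcl1, a chemokine that draws cross-presenting dendritic cells, stood at 47.1 CPM in expanded and 94.1 CPM in singleton cells of pBIC10, and 14.7 CPM in expanded and 78.6 CPM in singleton cells of pBIC. Its log2 fold change was -1.66 (SE 0.23, adjusted p 0.00197), but DESeq2 gave an adjusted p of 0.984. Id3 stood at 2.15 CPM in expanded and 11.5 CPM in singleton cells of pBIC10, and 3.90 CPM in expanded and 8.14 CPM in singleton cells of pBIC, with a log2 fold change of -1.68 (SE 0.29, adjusted p 0.0106), and DESeq2 gave 0.0999. Slamf6 was lower in expanded cells of pBIC10 (68.6 CPM, against 105 in singletons) and level in pBIC (47.8 CPM, against 47.7 in singletons), and did not pass (adjusted p 0.252).

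**Figure D3:**
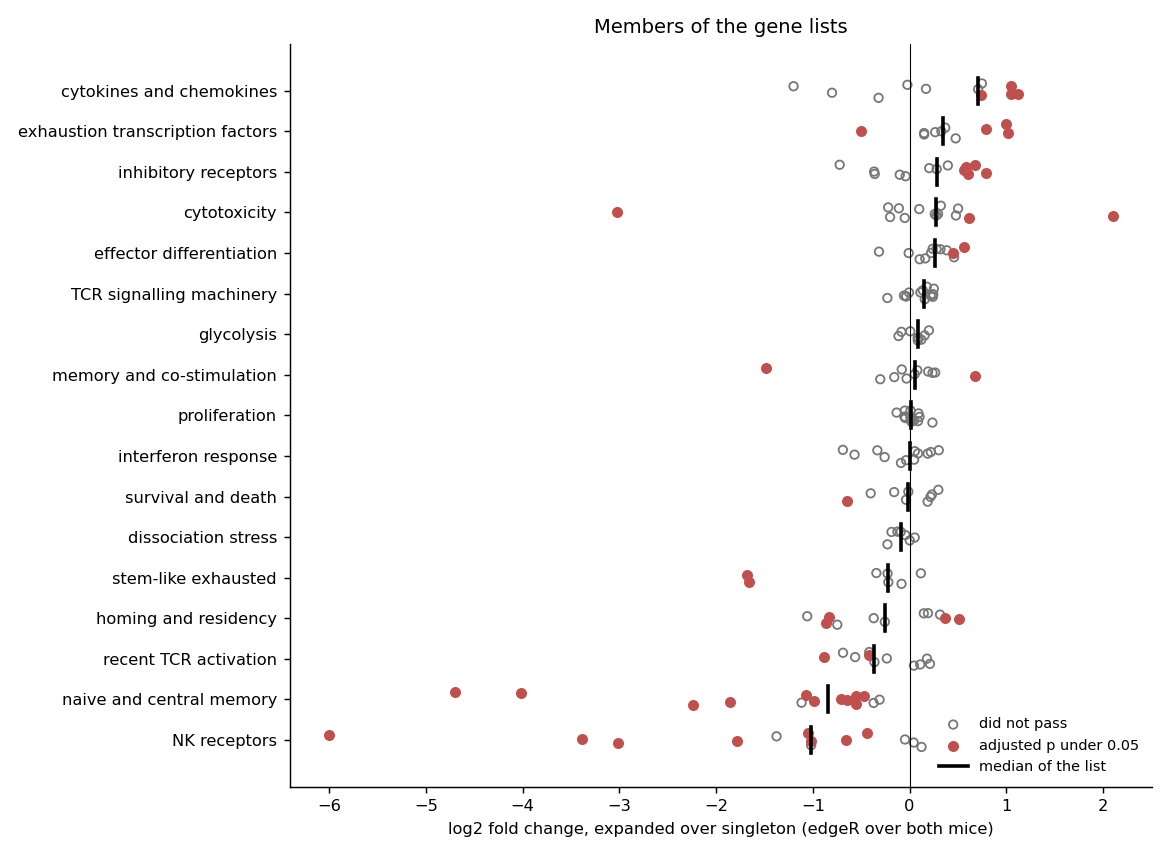
Each point is a gene of a list, placed by its edgeR log2 fold change of expanded over singleton cells (x axis); filled red points passed at an adjusted p under 0.05, open points did not, and the bar is the median of the list. Among the lists drawn, which leave out the markers of other cell types, NK receptors and naive and central memory genes lie furthest left, with medians of -1.02 and -0.85, and cytokines and chemokines furthest right, with 0.71.

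Most receptors first described on NK cells fell in expanded cells. Of 13 tested, 8 fell (Klra1, Klra3, Klra7, Klrb1c, Klrc1, Klrd1, Klre1 and Klrk1) and 0 rose, and the list median was -1.02, also with genes at 0 set to their bound. Over the genes counted within a library the median was -0.37 in pBIC10, with 3 of 7 lower, and -1.06 in pBIC, with 9 of 12 lower. Klrk1, which encodes the activating receptor NKG2D, stood at 23.4 CPM in expanded and 56.7 CPM in singleton cells of pBIC10, and 72.4 CPM in expanded and 129.9 CPM in singleton cells of pBIC, with a log2 fold change of -1.05 (SE 0.10, adjusted p 0.000149). Klrd1, which encodes CD94, stood at 74.4 CPM in expanded and 115 CPM in singleton cells of pBIC10, and 133 CPM in expanded and 209 CPM in singleton cells of pBIC, with a log2 fold change of -0.66 (SE 0.08, adjusted p 0.00105). Klre1 stood at 8.97 CPM in expanded and 19.3 CPM in singleton cells of pBIC10, and 36.6 CPM in expanded and 70.1 CPM in singleton cells of pBIC, with a log2 fold change of -1.02 (SE 0.11, adjusted p 0.000310). In all 3, expanded cells were lower in each mouse and pBIC was above pBIC10 in each class.

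The Ly49 genes were sparse in pBIC10. Klra7 had 0 UMIs in expanded and 38 in singleton cells of pBIC10, and 4.34 CPM in expanded and 39.7 CPM in singleton cells of pBIC (adjusted p 9.26e-05). Klrb1c stood at 0.0897 CPM in expanded and 1.36 CPM in singleton cells of pBIC10, and 3.36 CPM in expanded and 25.6 CPM in singleton cells of pBIC, with a log2 fold change of -3.01 (SE 0.29, adjusted p 0.000149). The Klra genes are close copies, and reads of 1 can be counted for another. DESeq2 called 6 of the 8 and not Klra7 (adjusted p 0.764) or Klrc1 (0.794). Klra3 passed in 11 of the 13 alternatives, and Klra1 and Klrb1c were too sparse to be tested in 3 and 1 of them. Summed over 8 markers of innate-like and gamma-delta T cells, expanded cells held 3.77 CPM and singletons 5.88 CPM in pBIC10, and expanded cells 7.12 CPM and singletons 11.1 CPM in pBIC; Zbtb16, Trdc, Sox13 and Il23r were at 0 in expanded cells of pBIC10. Of the 3 of these markers tested, 0 passed, and their part in the NK receptor result was not tested.

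Ly6c2 had the smallest adjusted p among the genes named here. It encodes a Ly6C surface protein of memory and effector CD8 cells, and a close copy, Ly6c1, can share its reads. It stood at 98.4 CPM in expanded and 257 CPM in singleton cells of pBIC10, and 138 CPM in expanded and 407 CPM in singleton cells of pBIC, 2.61-fold and 2.94-fold lower in expanded cells, with a log2 fold change of -1.49 (SE 0.09, adjusted p 7.47e-06). Of the 11 genes of memory and co-stimulation, Ly6c2 fell, Icos rose (log2 fold change 0.68, SE 0.09, adjusted p 0.00197) and the list median was 0.05. Icos, a co-stimulatory receptor, stood at 96.6 CPM in expanded and 55.1 CPM in singleton cells of pBIC10, and 98.3 CPM in expanded and 66.1 CPM in singleton cells of pBIC. Cd27, Cd28, Cd44 and Il2rb did not pass.

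Homing genes went both ways. Of 11 tested, Ccr2 and Cxcr6 rose, Gpr183 and Itgb1 fell, and the list median was -0.26 in edgeR, while over the genes counted within a library it was 0.19 in pBIC10 (9 genes) and 0.07 in pBIC (10 genes). Cxcr6 stood at 83.8 CPM in expanded and 49 CPM in singleton cells of pBIC10, and 137 CPM in expanded and 112 CPM in singleton cells of pBIC, with a log2 fold change of 0.51 (SE 0.11, adjusted p 0.0434), and Ccr2 at 259.7 CPM in expanded and 204 CPM in singleton cells of pBIC10, and 267 CPM in expanded and 200.3 CPM in singleton cells of pBIC, with a log2 fold change of 0.37 (SE 0.08, adjusted p 0.0493); neither passed DESeq2 (adjusted p 0.531 and 0.633). Gpr183, a receptor that positions lymphocytes in the spleen, stood at 40.2 CPM in expanded and 69.7 CPM in singleton cells of pBIC10, and 12.8 CPM in expanded and 24.9 CPM in singleton cells of pBIC, with a log2 fold change of -0.87 (SE 0.11, adjusted p 0.000793). Itgb1 stood at 29.4 CPM in expanded and 61.2 CPM in singleton cells of pBIC10, and 56.5 CPM in expanded and 85.9 CPM in singleton cells of pBIC, with a log2 fold change of -0.83 (SE 0.10, adjusted p 0.000899). Gpr183 and Itgb1 passed in DESeq2 as well (0.0200 and 0.00820).

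Among 11 genes of recent TCR activation, Cd69 and Myc fell, 0 rose, and the list median was -0.36. Cd69 stood at 25.8 CPM in expanded and 54.9 CPM in singleton cells of pBIC10, and 75.8 CPM in expanded and 123 CPM in singleton cells of pBIC, with a log2 fold change of -0.89 (SE 0.10, adjusted p 0.000360). Myc stood at 91.9 CPM in expanded and 113 CPM in singleton cells of pBIC10, and 73.5 CPM in expanded and 105 CPM in singleton cells of pBIC, with a log2 fold change of -0.42 (SE 0.09, adjusted p 0.0388), and did not pass DESeq2 (adjusted p 0.984). Nr4a1 at -0.36, Egr1 at 0.18 and Nr4a2 at 0.21 did not pass.

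Of the other genes named by the rule, Penk, the gene of the opioid precursor proenkephalin, stood at 753 CPM in expanded and 437 CPM in singleton cells of pBIC10, and 147 CPM in expanded and 64.9 CPM in singleton cells of pBIC, with a log2 fold change of 0.95 (SE 0.10, adjusted p 0.000328). Its level differed more between the mice than between the classes. Ociad2, with no firmly known role in T cells, stood at 60.4 CPM in expanded and 29.3 CPM in singleton cells of pBIC10, and 50.4 CPM in expanded and 22.6 CPM in singleton cells of pBIC, with a log2 fold change of 1.08 (SE 0.10, adjusted p 0.000100). Sdcbp2, which encodes syntenin-2, stood at 54.7 CPM in expanded and 30.9 CPM in singleton cells of pBIC10, and 51.4 CPM in expanded and 31.6 CPM in singleton cells of pBIC, with a log2 fold change of 0.76 (SE 0.10, adjusted p 0.00135), and did not pass DESeq2 (0.0760).

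Klhl6, a ubiquitin ligase adaptor known from B cells, stood at 15.4 CPM in expanded and 31.7 CPM in singleton cells of pBIC10, and 31.3 CPM in expanded and 55.3 CPM in singleton cells of pBIC, with a log2 fold change of -0.93 (SE 0.10, adjusted p 0.000456). Gramd3 stood at 41.5 CPM in expanded and 96.7 CPM in singleton cells of pBIC10, and 101 CPM in expanded and 170.1 CPM in singleton cells of pBIC, with a log2 fold change of -0.99 (SE 0.10, adjusted p 0.000217). Ssh2, a cofilin phosphatase, stood at 25.3 CPM in expanded and 40.7 CPM in singleton cells of pBIC10, and 52.6 CPM in expanded and 89.5 CPM in singleton cells of pBIC, with a log2 fold change of -0.75 (SE 0.09, adjusted p 0.000899). All 3 were lower in expanded cells of each mouse, which the naming rule requires, and pBIC was above pBIC10 in each class.

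No difference in genes of cell division passed. Of 15 proliferation genes edgeR called 0, also at an unadjusted p under 0.05, and DESeq2 called 0. Mki67 stood at 173 CPM in expanded and 209 CPM in singleton cells of pBIC10, and 353 CPM in expanded and 284 CPM in singleton cells of pBIC, so the ratio pointed opposite ways in the 2 libraries (-0.27 and 0.31 on the log2 scale; adjusted p 0.995). The list median was -0.33 in pBIC10 and 0.39 in pBIC. A UMI of Mki67 was seen in 37.7% of expanded cells and 41.0% of singletons of pBIC10, and 43.2% of expanded cells and 38.0% of singletons of pBIC; thinned to 2000 UMIs, the shares were 17.6% of expanded cells and 17.2% of singletons of pBIC10, and 23.5% of expanded cells and 19.9% of singletons of pBIC. Without the cells that held a UMI of Mki67 or Top2a, 138 of the 177 genes passed among 176 higher and 186 lower.

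Genes of TCR signalling (14 tested), the interferon response (12), glycolysis (9) and dissociation stress (7) gave 0 calls in edgeR and 0 in DESeq2. Of their members 4, 5, 0 and 1 had an unadjusted edgeR p under 0.05, beside 1151 of all 11932 genes tested. Their list medians were 0.15, 0.01, 0.09 and -0.09. Of 9 survival and death genes, Bcl2l11, which encodes the death-promoting protein BIM, fell (15.1 CPM in expanded and 21.6 CPM in singleton cells of pBIC10, and 27.8 CPM in expanded and 45.8 CPM in singleton cells of pBIC; log2 fold change -0.65, SE 0.12, adjusted p 0.0132) and 0 rose; it did not pass DESeq2 (adjusted p 0.893).

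Markers of other cells differed between the classes in part. The 12 markers of B cells and lymphoma summed to 2136 CPM in expanded and 2994 CPM in singleton cells of pBIC10 and 1203 CPM in expanded and 859 CPM in singleton cells of pBIC, and Ighm was the 1 member that fell (log2 fold change -0.68, SE 0.15, adjusted p 0.0472). The 10 myeloid markers summed to 2316 CPM in expanded and 2417 CPM in singleton cells of pBIC10 and 746 CPM in expanded and 585 CPM in singleton cells of pBIC; C1qa rose (log2 fold change 1.35, SE 0.19, adjusted p 0.00240) and S100a8 fell (log2 fold change -0.48, SE 0.10, adjusted p 0.0327). The 8 erythroid and platelet markers summed to 181 CPM in expanded and 140 CPM in singleton cells of pBIC10 and 379 CPM in expanded and 239 CPM in singleton cells of pBIC, and Hba-a2 and Hbb-bs rose (log2 fold change 0.71, SE 0.15, adjusted p 0.0311 and log2 fold change 0.65, SE 0.10, adjusted p 0.00300). DESeq2 called Hbb-bs only, and over the 13 alternatives Hbb-bs passed in 8, C1qa in 10, Hba-a2 and Ighm in 5 each and S100a8 in 3. Hbb-bs lay above the singleton level in 43 of 110 expanded clonotypes with at least 5 gated cells in pBIC10 and 28 of 201 in pBIC. Hba-a2 did so in 54 and 43, and C1qa in 61 and 44. In pBIC the highest clonotype held 7393 CPM of Hbb-bs, beside 94.7 CPM in singletons. The 6 CD4 and regulatory T markers summed to 323 CPM in expanded and 380.5 CPM in singleton cells of pBIC10 and 83.5 CPM in expanded and 63.8 CPM in singleton cells of pBIC, with 0 of 4 tested called by edgeR or DESeq2 and 1 at an unadjusted p under 0.05. The part of this RNA in the gene results was not tested.

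For Tcf7 and Ly6c2 in both mice and for Gzmm in pBIC, the class of 5 to 49 lay between its neighbours. Over frequency 1, 2 to 4, 5 to 49 and 50 or more, Tcf7 stood at 55.5, 11.4, 3.59 and 1.52 CPM in pBIC10 and 85.5, 45.6, 31.7 and 13.9 CPM in pBIC. Ly6c2 stood at 257, 206, 98.4 and 65.2 CPM in pBIC10 and 407, 213, 138 and 87.4 CPM in pBIC. Both genes were lower at each step in both mice. Gzmm stood at 8.86, 5.38, 1.08 and 0.910 CPM in pBIC10 and 36.5, 21.1, 4.61 and 1.54 CPM in pBIC. Its last step in pBIC10, from 1.08 to 0.910 CPM, was too small at this low level to be read as a difference.

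In the other direction, Ccl4 stood at 811, 1281, 2075 and 3382 CPM over the same 4 sizes in pBIC10 and 1350.0, 2069.6, 2316 and 3432 CPM in pBIC. Il10 stood at 19.4, 21.4, 37.7 and 48.8 CPM in pBIC10 and 20.1, 26.2, 45.1 and 57.7 CPM in pBIC. Havcr2 stood at 126, 189, 192 and 251 CPM in pBIC10 and 125, 164, 192 and 202 CPM in pBIC. All 3 were highest in the largest clones of each mouse. Tox and Maf were highest at 50 or more in pBIC10 (213 and 119.8 CPM) but at 5 to 49 in pBIC (186 and 216 CPM, against 175 and 195 CPM at 50 or more). Klrd1 was lowest at 5 to 49 in pBIC10 and higher at 50 or more (115, 95.6, 74.4 and 145 CPM over the 4 sizes), while in pBIC it was lower at each step (209, 168, 133 and 96.8 CPM). The class of 50 or more held 5 clonotypes with 340 cells in pBIC10 and 19 clonotypes with 1730 cells in pBIC, so single clones weigh heavily in it.

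**Figure D4:**
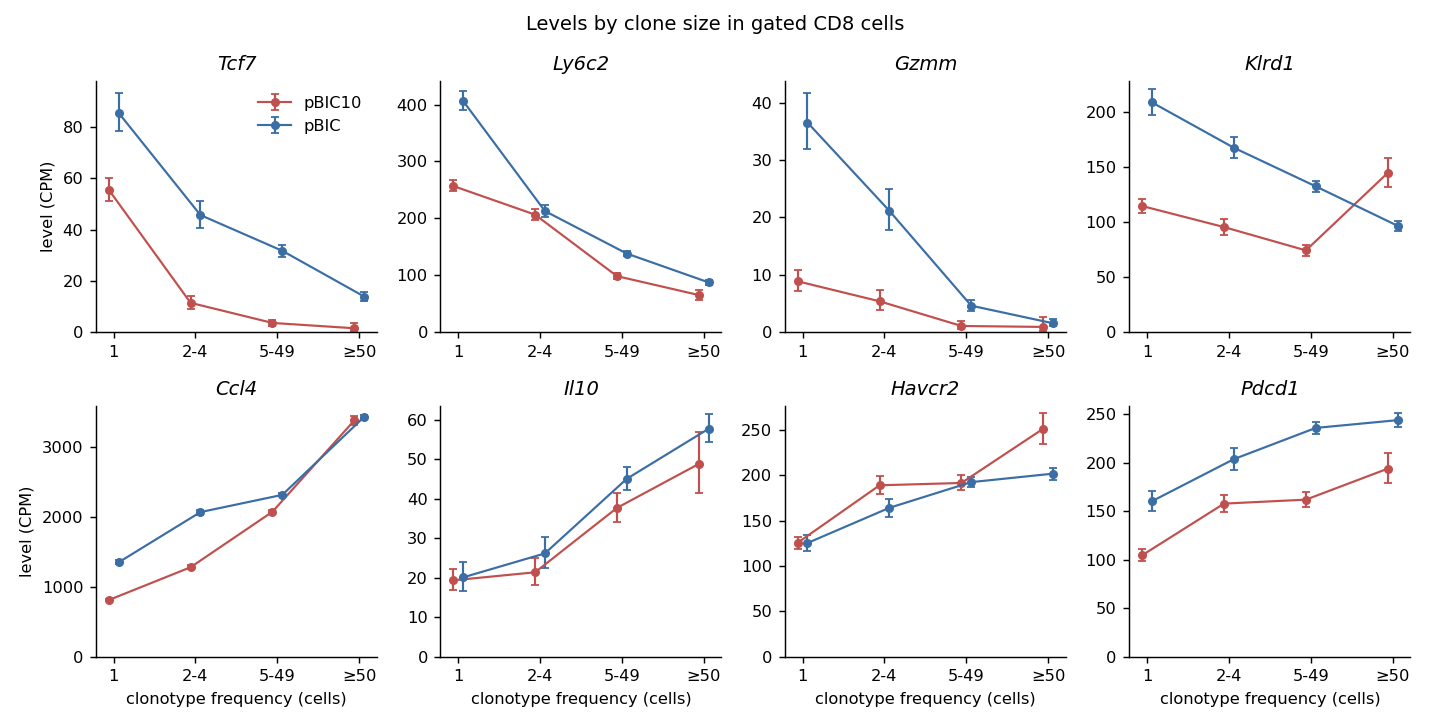
Levels in CPM (y axis) of 8 genes in gated CD8 cells by clonotype frequency (x axis), in pBIC10 (red) and pBIC (blue); bars are exact Poisson 95% intervals, counting error only. Tcf7, Ly6c2 and Gzmm step down and Ccl4, Il10, Havcr2 and Pdcd1 step up with clone size in both mice. The last step of Gzmm in pBIC10 is too small to be read, and Klrd1 turns up at 50 or more in pBIC10 (145 CPM).

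At the lower threshold, clonotypes of frequency 5 (144 cells in 31 clonotypes of pBIC10 and 173 cells in 42 of pBIC) were set beside those of frequency 4 (151 cells in 42 and 184 cells in 54). Tcf7 stood at 4.80 CPM at frequency 5 and 4.13 CPM at frequency 4 in pBIC10, and at 48.8 CPM at frequency 5 and 52.7 CPM at frequency 4 in pBIC. Ly6c2 stood at 88.5 CPM at frequency 5 and 156 CPM at frequency 4 in pBIC10, and at 240.5 CPM at frequency 5 and 323 CPM at frequency 4 in pBIC. At the upper threshold the largest clonotype inside had frequency 33 in pBIC10 and 48 in pBIC, and the smallest outside had 56 in pBIC10 and 52 in pBIC, the last held by 2 clonotypes. Ccl4 stood at 6709 CPM just inside and 4787 CPM just outside in pBIC10, and at 158 CPM just inside and 3481 CPM just outside in pBIC. At the upper threshold each value rests on 1 or 2 clonotypes.

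Clonotypes within the class varied widely. Of those with at least 5 gated cells, 110 in pBIC10 and 201 in pBIC, Gzmk lay above the singleton level in 96 of 110 and 150 of 201, with medians of 965 and 1491 CPM. Tigit lay above it in 87 of 110 and 152 of 201, and Entpd1 in 90 and 137. Tcf7 lay above it in 1 of 110 and 29 of 201, and had 0 UMIs in 90 and 84. Ly6c2 lay above it in 13 and 17, with medians of 34.8 and 50.7 CPM. Each of these genes thus lay on one side of the singleton level in most clonotypes of each mouse. That level is the one of the summed singletons, not of single cells. For Tcf7 and Ly6c2 the depth of a small clonotype limits what can be seen, so 0 UMIs are not read as absence.

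The chemokines and Il10 did not follow that pattern. Ccl3 lay above the singleton level in 51 of 110 clonotypes of pBIC10 and 108 of 201 of pBIC, with medians of 295 and 377 CPM and highest values of 10727 and 4451 CPM. Ccl4 lay above it in 50 and 102, with medians of 618 and 1389 CPM. Il10 lay above it in 57 and 84, had 0 UMIs in 40 and 77, where the depth of a small clonotype limits what can be seen, and reached 329 and 603 CPM. Penk lay above it in 57 and 86 and reached 8515 and 3434 CPM. For these 4 genes 41.8 to 53.7% of the clonotypes of a mouse lay above the singleton level, while the class sums lay above it in both mice. With every clonotype given equal weight, the log2 ratio was 1.18 in pBIC10 and 0.51 in pBIC for Ccl4, 0.92 and 1.31 for Il10, and 0.68 and 0.14 for Csf1.

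**Figure D5:**
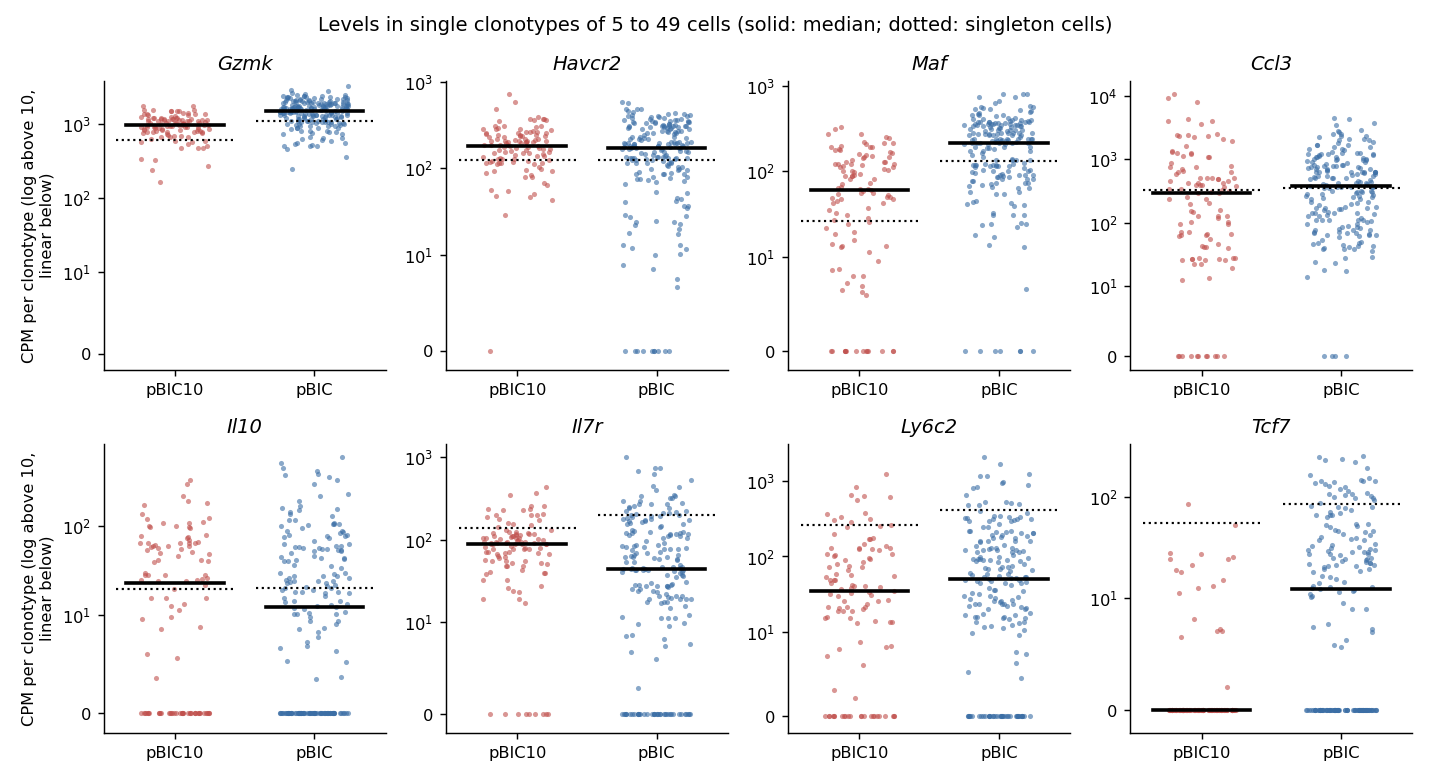
Each point is a clonotype of frequency 5 to 49 with at least 5 gated cells, 110 in pBIC10 (red) and 201 in pBIC (blue), placed by its level in CPM (y axis, log above 10 and linear below); the solid line is the median of the clonotypes and the dotted line the level of the singletons. The medians of Gzmk, Havcr2 and Maf lie above the singleton line and those of Il7r, Ly6c2 and Tcf7 below it in both mice, while Ccl3 and Il10 straddle it.

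The named clonotypes show the range. Clonotype6, the largest of the class in pBIC10, had 2413 CPM of Ccl3, 6709 of Ccl4 and 97.0 of Il10, and 0 UMIs of Tcf7, where 3 counts would be 9.39 CPM. Clonotype20, the largest in pBIC, had 22.6 CPM of Ccl3, 158 of Ccl4, 0 UMIs of Il10 (3 counts would be 8.48 CPM), 107 CPM of Tcf7, 294 of Il7r and 794 of Ly6c2. Its Ly6c2 level was above that of the singletons of its own mouse, 407 CPM. Its Tcf7 level was also higher, but the counting interval of 76.0 to 147 CPM includes the singleton level of 85.5 CPM. Clonotype21 of pBIC, 2 cells smaller by frequency, had 2379.7 CPM of Ccl4, 62.7 of Il10 and 29.7 of Ly6c2. Clonotype8 of pBIC10 had 1771 CPM of Ccl4, 29.5 of Il10 and 1 UMI each of Tcf7 and Ly6c2. Clonotype25 of pBIC had 613 CPM of Ccl4, 1 UMI of Il10, 102 CPM of Tcf7 and 29.2 of Ly6c2. Each of these 5 rests on 27 to 44 cells of 1 mouse.

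The 2 pairs of clonotypes with a shared TRB protein did not share all levels. Clonotype7 had 449 CPM of Penk and 2269 of Ccl4, and clonotype93, with the same TRA as well, had 3342 CPM of Penk and 155 of Ccl4. Clonotype75 had 3803 CPM of Gzmb and 126 of Ly6c2, and clonotype76 had 1701 CPM of Gzmb and 652 of Ly6c2. The smaller clonotype of the first pair and both of the second were measured in 6 gated cells each, so no test was made.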

How the data were processed

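Spleen cells of 1 pBIC10 and 1 pBIC mouse were measured in 4 libraries, gene expression and TCR from each mouse. The UMI counts per gene and barcode were deposited by the authors as made with Cell Ranger; the submitters' processing notes name version 3.0.1 and GRCm39, and the file headers name version 5.0.1. Clonotypes, their cell counts and the share of each clonotype in its library were deposited by the authors from the same software, per the file headers, and filtered contigs were used as given.

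The members, gene lists and tests were chosen with earlier results of these data known. UMI counts were summed per mouse and class and tested with edgeR 4.0.16 (TMM, filterByExpr, quasi-likelihood, mouse as a block, R 4.3.3); 257 TCR segments were left out and Cd8a, Cd8b1, Cd4, Cd79a and Cd79b were not tested. Both classes come from the same mouse, which is where the pairing comes from. Named genes are up to 10 per direction that passed edgeR and the 1.5-fold rule in both libraries at 30 CPM or more and a UMI in 5% of cells, ranked by the smaller ratio, up to 3 per direction from each of 22 lists, and Il10, Gzmb, Tcf7, Pdcd1 and Mki67, up to 3 genes per direction called opposite ways in the libraries, and the 3 largest clonotypes of each library; other list members were named after their values were seen, and 1 gene is not reported here. DESeq2 1.42.0 was an alternative. Doublets were marked by Scrublet (scanpy 1.11.5, expected rate 8%) and kept in the main comparison. The library totals were 147884282 UMIs for pBIC10 and 166941618 for pBIC, and intervals cover counting error only.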

Additional observations from a re-analysis of the deposited data

Results flagged for a closer look

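Of the 11 genes called in opposite directions in the 2 libraries, 3 that were lower in expanded cells of pBIC10 and higher in those of pBIC are given here; the difference between the mice was not tested. Lyz1 stood at 3.23 CPM in expanded and 10.0 CPM in singleton cells of pBIC10, a log2 ratio of -1.64, and at 21.8 CPM in expanded and 3.49 CPM in singleton cells of pBIC, a log2 ratio of 2.64. Lyz1 encodes a lysozyme, and reads of its close copy Lyz2, a myeloid marker, can be counted for it. In pBIC it had 0 UMIs in 167 of 201 expanded clonotypes with at least 5 gated cells, and the highest clonotype held 2527 CPM. Nrgn, which encodes the calmodulin-binding protein neurogranin, stood at 15.4 CPM in expanded and 30.9 CPM in singleton cells of pBIC10 (log2 ratio -1.003) and at 3.45 CPM in expanded and 1.33 CPM in singleton cells of pBIC (1.38). Tubb3, which encodes a beta-tubulin, stood at 2.87 CPM in expanded and 5.61 CPM in singleton cells of pBIC10 (-0.97) and at 7.30 CPM in expanded and 2.66 CPM in singleton cells of pBIC (1.46).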

How the results depend on the processing

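Against 79 genes higher and 98 lower in expanded cells, DESeq2 called 25 and 29, RLE scaling 133 and 151, no filter on low counts 200 higher, clone frequency 5 to 19 called 60 lower, frequency 10 to 49 called 32 and 61, and leaving out dividing cells 176 and 186. Of 2 settings added after the data had been seen, leaving out singletons with a shared TRB CDR3 called 59 lower, and leaving out shared barcodes 189 and 192; the cause of these moves was not tested. Without the replicate block, edgeR called 0 higher and 0 lower, with 45 genes at an unadjusted p under 0.05. Under a 2-fold rule the libraries held 58 higher and 104 lower genes in pBIC10 and 133 higher and 80 lower in pBIC. Of the 177 genes called, 37 were called under all 13 alternatives with the block, and DESeq2 kept 50 and gave 3 the other sign. Of 60 called genes of the lists and the naming rule, 29 were called under all 13 and 24 were lost with DESeq2. For single genes, a reversed sign was looked for only in part of the named genes. These were the genes named for passing edgeR and the 1.5-fold rule in both libraries, and Il10, Gzmb, Tcf7, Pdcd1 and Mki67. No called result among them reversed. For the genes named by that rule, the ratio with 1 mouse left out could not reverse, since the rule required the same direction in both libraries. With 1 mouse left out no spread remains, so only ratios were given. Depth limits sparse genes: 0 UMIs in a class allow 0.269 CPM in expanded and 0.271 in singleton cells of pBIC10, and 0.134 in expanded and 0.498 in singleton cells of pBIC.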
